A study of Mus musculus with 6 samples.

Results

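The genes described here are 38 interferon-induced antiviral genes, their regulators and the genes of MHC class I presentation, chosen by name and followed across 6 one-colour arrays of mouse astrocyte cultures. Of the 38, 36 had a named probe and all 36 passed the filter on dim probes, among 17301 genes with a named probe in all. No probe was matched to Mx1 or Mx2. Astrocytes, the glial cells that support neurons, were cultured from the striatum and cortex of wild-type C57BL/6J pups at postnatal day 1. All cultures had been exposed to 5 µM AraC, which kills dividing cells, for 2 days before treatment. Washout cultures received 1 µM Ro3303544, an inhibitor of the kinase GSK-3, for 48 h from day 13 in vitro and were kept without it for a further 48 h, to day 17. Ro cultures received 1 µM Ro3303544 for 48 h and were harvested at day 15. Control cultures stayed in medium with 10% serum and were also harvested at day 15; the protocol names a DMSO vehicle where the sample titles name medium. Each group had 2 arrays. The labels do not say that the replicates came from separate preparations, so p-values measure the spread between these samples, which may be technical.

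Interferons are secreted alarm proteins that bind receptors on neighbouring cells and, through JAK kinases, activate transcription factors, STAT2 and IRF9 among them. These factors bind the promoters of interferon-stimulated genes, many of which block viral replication at the level of RNA, protein synthesis or vesicle traffic. Interferon-gamma is a strong inducer of the immunity-related GTPases and of MHC class I, which shows peptides from inside the cell to T cells. Astrocytes carry receptors for both kinds of interferon and can keep a low level of these transcripts without infection.

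Promoters of 33 of the 36 measured genes were found in RefSeq (build GRCm38.p6), as windows from 250 bases before to 50 after an annotated start. The windows were searched on both strands for the core of the interferon-stimulated response element, GAAANNGAAA (TTTCNNTTTC on the other strand), and for the gamma-activated site TTCNNNGAA, which reads the same on both strands. Overlapping matches were counted, and sequences that differ from these letters were not, so a window without a match may still hold a variant element. GAAANNGAAA was present in 17 of the 33 genes (51.5%), against 3.99% of all 27025 genes with a promoter in the table. TTCNNNGAA was present in 10 of the 33 (30.3%), against 9.55% of all genes. A match describes the letters in the window and is not evidence of binding. The windows of 5 genes on which the results turn follow, 5′ to 3′ in the direction of transcription, with every match to either motif in capitals. Ifit1, Ifit3 and Isg15 fell in Ro cultures, Igtp rose, and Irf1 fell in Ro cultures and was higher in washout cultures.
Ifit1, chr19:34640639-34640938, plus strand: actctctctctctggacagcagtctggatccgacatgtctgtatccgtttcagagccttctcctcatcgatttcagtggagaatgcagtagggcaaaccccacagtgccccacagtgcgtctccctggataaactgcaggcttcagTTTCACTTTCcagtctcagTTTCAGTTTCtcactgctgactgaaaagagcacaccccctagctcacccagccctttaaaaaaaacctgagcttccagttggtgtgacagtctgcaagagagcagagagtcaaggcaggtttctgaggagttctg
Ifit3, chr19:34583279-34583578, plus strand: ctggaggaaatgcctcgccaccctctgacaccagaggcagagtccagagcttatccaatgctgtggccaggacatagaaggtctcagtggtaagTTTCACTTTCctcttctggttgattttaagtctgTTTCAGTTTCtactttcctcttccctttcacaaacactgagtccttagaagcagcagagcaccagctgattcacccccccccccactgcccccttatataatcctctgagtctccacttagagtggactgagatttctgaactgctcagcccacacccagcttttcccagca
Isg15, chr4:156200769-156201068, minus strand: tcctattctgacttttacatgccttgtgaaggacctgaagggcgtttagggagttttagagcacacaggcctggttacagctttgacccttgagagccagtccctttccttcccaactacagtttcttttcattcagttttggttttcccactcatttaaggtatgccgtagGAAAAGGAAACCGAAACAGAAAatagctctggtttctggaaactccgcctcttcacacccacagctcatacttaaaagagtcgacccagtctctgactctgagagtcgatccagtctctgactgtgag
Igtp, chr11:58199306-58199605, plus strand: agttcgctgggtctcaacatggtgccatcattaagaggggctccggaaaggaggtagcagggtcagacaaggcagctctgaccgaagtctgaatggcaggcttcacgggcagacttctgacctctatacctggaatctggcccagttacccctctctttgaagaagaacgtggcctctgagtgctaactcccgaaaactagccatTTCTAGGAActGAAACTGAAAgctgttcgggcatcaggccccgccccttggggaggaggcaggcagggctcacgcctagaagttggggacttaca
Irf1, chr11:53769764-53770063, plus strand: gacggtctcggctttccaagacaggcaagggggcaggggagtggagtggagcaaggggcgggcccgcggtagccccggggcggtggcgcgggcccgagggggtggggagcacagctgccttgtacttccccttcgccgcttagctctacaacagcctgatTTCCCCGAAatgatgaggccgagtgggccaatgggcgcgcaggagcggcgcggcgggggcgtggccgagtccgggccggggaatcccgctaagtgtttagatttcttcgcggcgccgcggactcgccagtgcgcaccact
The Isg15 window held 3 overlapping matches to GAAANNGAAA, and the Ifit1 and Ifit3 windows held 2 each. Igtp held 1 match to each motif side by side. The Irf1 window held 1 match to TTCNNNGAA and none to GAAANNGAAA.

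Intensities were divided by the 75th percentile of each array and put on a common scale, called normalized intensity, in arbitrary units. Feature Extraction called 60.4% to 65.2% of probes well above background, depending on the array, and 2 arrays of a group correlated at r = 0.992 to 0.996 across 20088 features. The number of arrays limits the precision. As a check of the treatment, Sp5, a transcription factor induced by Wnt signalling, measured 11850 and 12602 in Ro cultures, against 41.0 and 40.3 in control cultures. In washout cultures Sp5 measured 170.3 and 160.0, still above both control arrays. All 9 astrocyte markers were above background. Both washout arrays lay on 1 slide and the Ro and control arrays on another, so that washout, slide and age of the culture cannot be told apart. Probes in regions of a slide where dim spots were raised stood for Isg15 and Usp18 (Ro 1), Igtp (control 2), and B2m and H2-K1 (washout 1).

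In Ro cultures most of the interferon-stimulated antiviral genes, both RNA sensors and all 5 transcription factors were lower than in control cultures. None of the 6 MHC class I genes was called lower, which in so few genes is near the share over all features. Of the 36 measured genes 22 were lower and 2 higher at an adjusted p under 0.05 (limma), where the whole array had 22.7% of features lower and 19.4% higher (42.1% called in either direction). The median change was -0.64 on the log2 scale over the 36 genes, against 0.0039 over all features. Both Ro arrays lay below both control arrays for 26 of the 36, a pattern seen in 38.8% of all features, and above them for 2, a pattern seen in 38.5%. Without Ro 1 the number called lower was 13, and without control 1 it was 17. The 10 calls lost without Ro 1 were Isg20, Usp18, Oasl1, Irf8, Irf9, Gbp2, Gbp3, Xaf1, Ddx58 and B2m, and every call lost without any other array was among these. In bulk RNA, fewer cells that express a gene and less of its RNA per cell cannot be told apart.

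**Figure D1:**
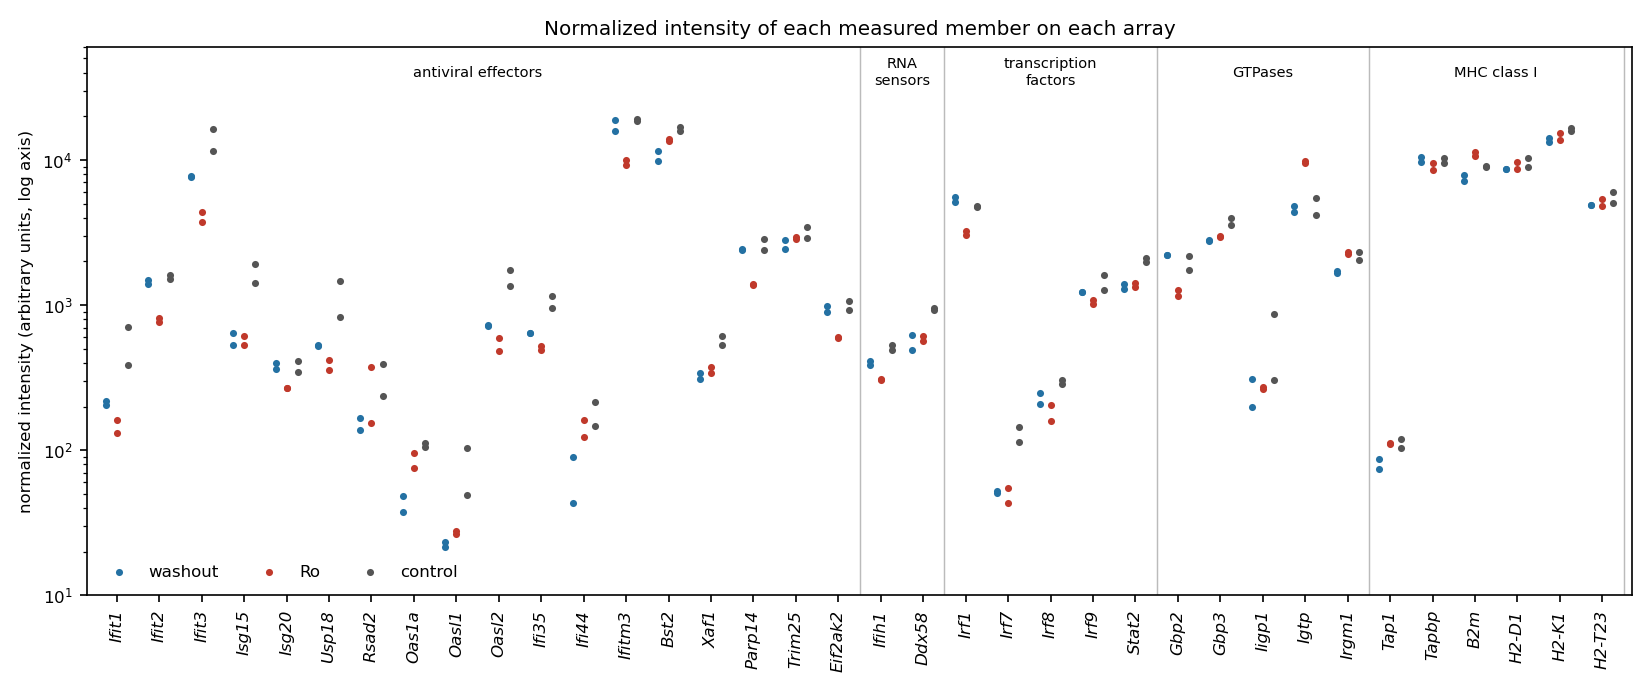
Normalized intensity (log axis, arbitrary units) of the 36 measured genes on each array, 2 points per group, with washout left of Ro and Ro left of control. Among the antiviral effectors both Ro points lie below both control points for 15 of 18 genes, and the MHC class I genes at the right have groups that lie close together.

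Of the 18 antiviral effectors 13 were lower and none was higher, with a median change of -0.94. Ifit1, which binds foreign RNA that lacks the host cap, measured 132.0 and 160.5 in Ro cultures, against 701 and 389 in control cultures. The Ro arrays were both low and close together, the control arrays were apart from each other, and the groups did not overlap. Its log2 change was -1.84 ± 0.29 (SE), a 3.59-fold lower level (limma, adjusted p = 0.0069). Ifit3, a partner that stabilises the IFIT complex, measured 3717 and 4359 in Ro cultures, against 16213 and 11510 in control cultures. It changed by -1.76 ± 0.18 on the log2 scale (limma, adjusted p = 0.0019), again with no overlap. Isg15, a ubiquitin-like protein attached to other proteins during infection, measured 529.8 and 607.6 in Ro cultures, against 1923 and 1411 in control cultures. Its change was -1.54 ± 0.19 (limma, adjusted p = 0.0030), so that Ro cultures held 2.90-fold less signal. Oasl2, a relative of the oligoadenylate synthetases that sense double-stranded RNA, measured 485.0 and 590.9 in Ro cultures, against 1737 and 1354 in control cultures. It fell by 1.52 ± 0.16 on the log2 scale (limma, adjusted p = 0.0019). For all 4 genes every Ro array lay below every control array.

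The remaining effectors that fell did so over a wide range. Usp18, which removes ISG15 from proteins and dampens receptor signalling, changed by -1.49 ± 0.27, and Oasl1, which restrains translation of Irf7, by -1.40 ± 0.35. Ifi35 changed by -1.06 ± 0.11, Ifit2 by -0.98 ± 0.08 and Ifitm3, a membrane protein that blocks viral fusion, by -0.97 ± 0.11. Parp14, an ADP-ribosyltransferase, changed by -0.91 ± 0.10 and Eif2ak2, the kinase PKR that halts translation on double-stranded RNA, by -0.72 ± 0.10. The smallest called falls were those of Xaf1, a proapoptotic protein, at -0.68 ± 0.11 and Isg20, an RNA exonuclease, at -0.49 ± 0.11. The 5 effectors that did not pass were Oas1a (-0.36 ± 0.17), Rsad2 (-0.35 ± 0.48), Ifi44 (-0.33 ± 0.39), Bst2 (-0.26 ± 0.11) and Trim25 (-0.14 ± 0.12), the last a ubiquitin ligase that activates RIG-I. Rsad2, the enzyme viperin, rested on an uneven pair, with 372.3 and 153.3 in Ro cultures against 394.2 and 235.7 in control cultures. Its other 2 probes gave -1.01 and -0.87, values inside the 95% interval of the used probe (-1.57 to 0.87), and those probes were well above background on 4 and 3 of the 6 arrays. The Ifit, Oas and Oasl genes belong to families of close copies, and cross-hybridisation between members was not tested.

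Both RNA sensors fell. Ifih1, which encodes the sensor MDA5, measured 303.0 and 311.0 in Ro cultures, against 530.2 and 488.6 in control cultures, a change of -0.73 ± 0.08 (limma, adjusted p = 0.0022). Ddx58, which encodes RIG-I, measured 566.1 and 613.1 in Ro cultures, against 961.0 and 920.9 in control cultures, a change of -0.68 ± 0.13 (limma, adjusted p = 0.013). On the probes used, neither gene had a Ro array above a control array. The other kept Ddx58 probes gave -1.16 and -0.35, and on the latter both Ro arrays (98.9 and 101.8) lay above control 2 (97.1).

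All 5 transcription factors fell, with a median change of -0.60. Irf7, the factor that amplifies interferon production, measured 43.0 and 54.5 in Ro cultures, against 144.4 and 113.6 in control cultures. At -1.40 ± 0.17 (2.65-fold lower, limma, adjusted p = 0.0029) it changed more than the other 4 factors. Irf8, known in macrophages and microglia, measured 160.0 and 205.1 in Ro cultures, against 302.4 and 287.1 in control cultures, and changed by -0.70 ± 0.15. Irf1, the early factor of the interferon-gamma response, measured 3039 and 3239 in Ro cultures, against 4815 and 4716 in control cultures. Its change was -0.60 ± 0.08 (limma, adjusted p = 0.0042). Stat2, a subunit of the factor that binds the response element, measured 1323 and 1419 in Ro cultures, against 2105 and 1975 in control cultures, and changed by -0.57 ± 0.08. No Ro array overlapped a control array for any of these. Irf9, the DNA-binding subunit of the same factor, changed by -0.44 ± 0.13 (limma, adjusted p = 0.047). The Irf9 call was lost with median centring, quantile normalization, the authors' values, averaged probes, no filter, the Ro and control arrays alone, and in 5 of the 6 fits that left out an array.

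The interferon-induced GTPases went both ways, with 2 lower, 1 higher and 2 not past the threshold. Igtp, which encodes the immunity-related GTPase Irgm3, measured 9593 and 9891 in Ro cultures, against 5508 and 4155 in control cultures. Ro cultures held a 2.04-fold higher level, a change of 1.03 ± 0.15 (limma, adjusted p = 0.0056), and the groups did not overlap. Its probe lay in a bright region on control 2, the lower control array, and no other Igtp probe was present to set beside it. Gbp2, a guanylate-binding protein that attacks pathogen vacuoles, measured 1146 and 1271 in Ro cultures, against 2171 and 1738 in control cultures, and fell by 0.69 ± 0.13 on the log2 scale. Gbp3, of the same family, measured 2930 and 2985 in Ro cultures, against 3975 and 3556 in control cultures, and fell by 0.35 ± 0.08. Irgm1, a regulator of autophagy, changed by 0.05 ± 0.09 and Iigp1, a GTPase that disrupts parasite vacuoles, by -0.95 ± 0.51, and neither passed. Close copies exist for the Gbp and Irg genes, and their share in these signals was not tested.

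Among the 6 MHC class I genes 1 (16.7%) was higher and none was lower (limma), also at an unadjusted p under 0.05. All features had 19.4% higher and 22.7% lower, and in so few genes these counts were near that background. B2m, the invariant light chain, measured 10705 and 11294 in Ro cultures, against 8917 and 9067 in control cultures. The rise was 0.29 ± 0.08 on the log2 scale (1.22-fold, limma, adjusted p = 0.041) with no overlap, and the second B2m probe gave 0.33. The B2m call was lost in each fit that left out a Ro or a control array, and with median centring or quantile normalization. The heavy chains H2-K1, H2-D1 and H2-T23 changed by -0.17, -0.08 and -0.12, with 95% intervals of -0.40 to 0.06, -0.34 to 0.18 and -0.41 to 0.18. For the peptide transporter Tap1 the change was -0.01 (95% interval -0.31 to 0.29), and for its partner Tapbp, which loads peptides, -0.12 (-0.36 to 0.11). Changes of the size seen in Ifit1 or Isg15 lie outside these intervals, which do not show that the levels were equal. Heavy chain genes are near-identical copies, so a signal for H2-K1 or H2-D1 may include other class I transcripts.

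**Figure D2:**
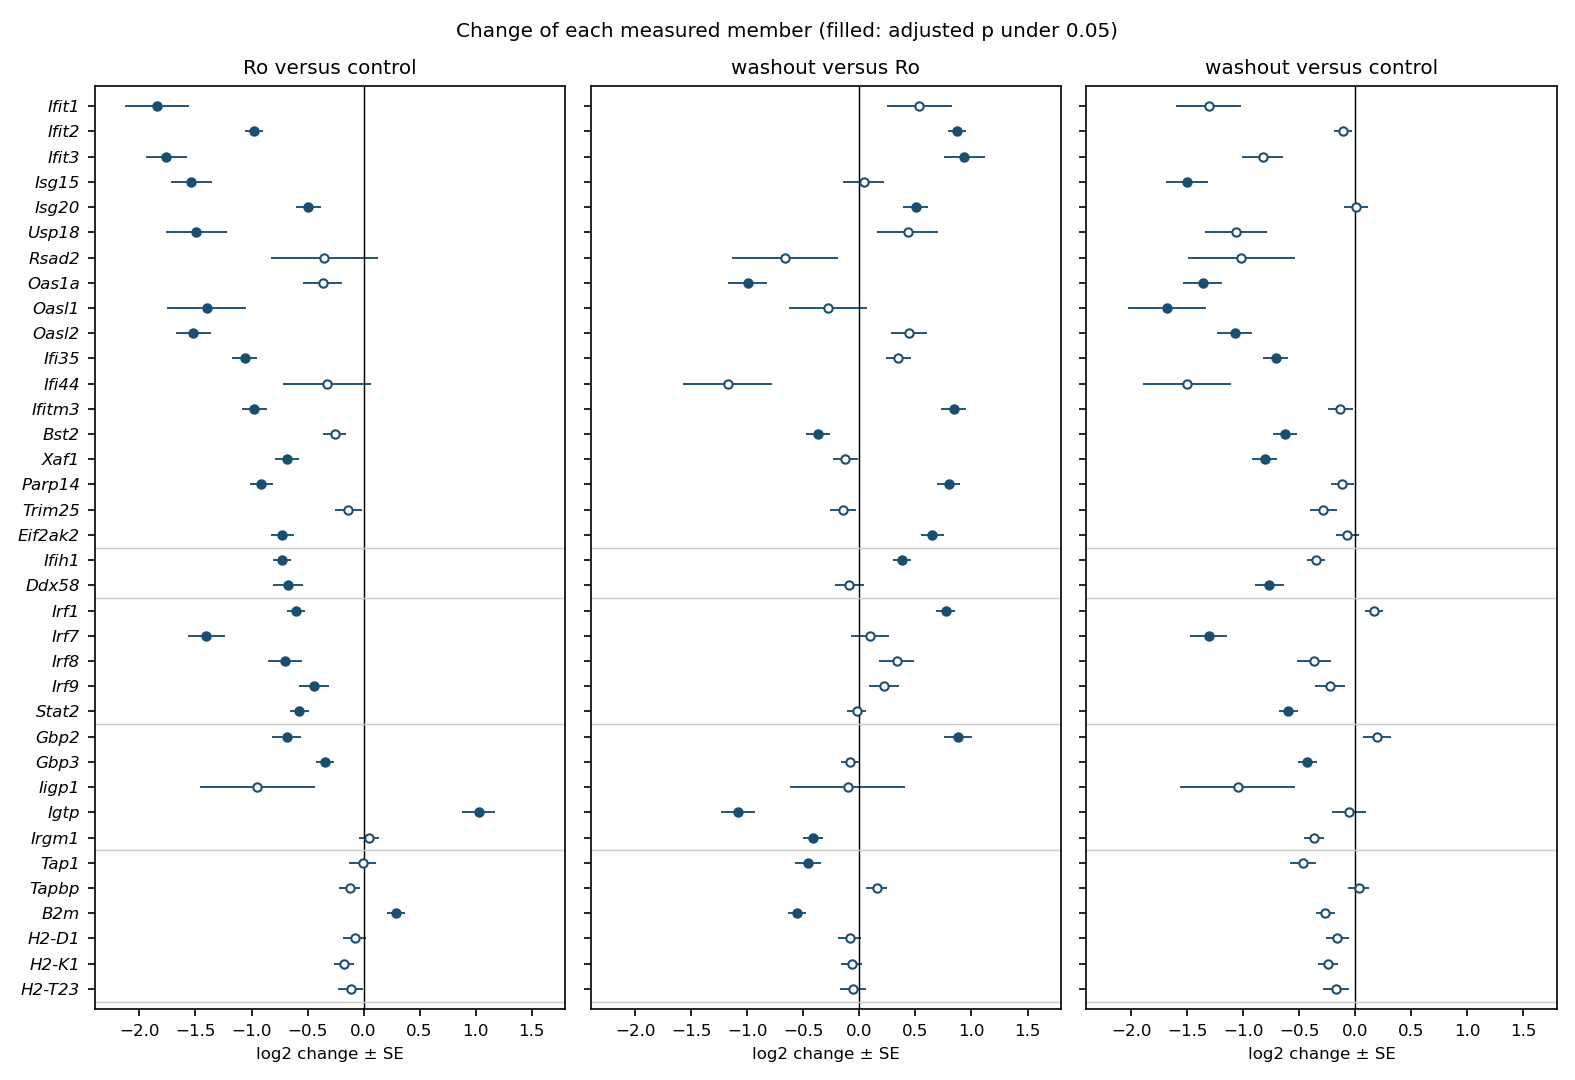
Log2 change ± SE of the 36 measured genes in Ro against control, washout against Ro and washout against control, with genes grouped by role from effectors at the top to MHC class I at the bottom. Filled points passed an adjusted p under 0.05: 22 lower and 2 higher, then 6 lower and 9 higher, then 11 lower and none higher.

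Genes with and without an exact GAAANNGAAA match in the window fell in equal number. Of the 17 genes with GAAANNGAAA in the window, 10 were lower and 2 higher in Ro cultures, with a median change of -0.57. Of the 16 genes without it, 10 were lower and none was higher, with a median of -0.55. Over all features 22.7% were lower and 19.4% higher in this comparison. Irf7 fell with neither motif in its window, and Igtp and B2m rose with GAAANNGAAA in theirs.

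Between washout and Ro cultures the genes parted. Of the 36 genes 9 were higher and 6 lower in washout cultures, where 21.4% of all features were higher and 20.1% lower (41.5% called in either direction). Of all features called, 51.5% were higher, against 40.5% after median centring, where the 36 genes split into 7 higher and 7 lower. The shares of 25.0% and 16.7% among the genes were near that background. The median change was 0.0059 and took the opposite sign under other scalings, so no direction is given for the group. Both washout arrays lay above both Ro arrays for 16 genes, against 36.2% of all features, and below for 11, against 38.2%. Without Ro 1, and likewise without Ro 2, 3 genes were called lower. The calls of Ifit3, Isg20, Ifih1, Bst2, Irgm1 and Tap1 were each lost without at least 1 array. All 3 comparisons share arrays, so their counts are not independent.

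Ifit3 measured 7778 and 7613 in washout cultures, against 3717 and 4359 in Ro cultures, a rise of 0.93 ± 0.18 (limma, adjusted p = 0.013). Ifit2, which acts with Ifit3 in the IFIT complex, measured 1402 and 1488 in washout cultures, against 768.4 and 814.3 in Ro cultures, a rise of 0.87 ± 0.08 (limma, adjusted p = 0.0012). Ifitm3 measured 18949 and 15736 in washout cultures, against 9234 and 10061 in Ro cultures, a rise of 0.84 ± 0.11 (limma, adjusted p = 0.0042). In all 3 genes both washout arrays lay above both Ro arrays. Parp14 (0.80 ± 0.10), Eif2ak2 (0.65 ± 0.10) and Isg20 (0.50 ± 0.11) also rose. The second kept Parp14 probe gave 0.04, so the Parp14 rise rests on 1 of its probes. Oas1a, an oligoadenylate synthetase, went the other way, with 48.2 and 37.3 in washout cultures against 75.1 and 95.2 in Ro cultures. It fell by 1.00 ± 0.17 on the log2 scale (limma, adjusted p = 0.0092). Bst2, the tether that holds budding virus on the cell surface, fell by 0.37 ± 0.11. Isg15 (0.04 ± 0.19), Xaf1 (-0.13 ± 0.11) and Trim25 (-0.15 ± 0.12) were among the effectors that did not pass. So were Ifit1 (0.53 ± 0.29), Usp18 (0.43 ± 0.27), Oasl2 (0.44 ± 0.16), Ifi35 (0.35 ± 0.11), Rsad2 (-0.66 ± 0.48), Ifi44 (-1.18 ± 0.39) and Oasl1, which was not well above background in washout cultures.

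Among sensors and factors, Ifih1 measured 411.9 and 387.1 in washout cultures, against 303.0 and 311.0 in Ro cultures, a rise of 0.38 ± 0.08 (limma, adjusted p = 0.017). Irf1 measured 5586 and 5118 in washout cultures, against 3039 and 3239 in Ro cultures, a rise of 0.77 ± 0.08 (limma, adjusted p = 0.0019). Both genes had washout arrays above every Ro array. The changes of Ddx58 (-0.09), Irf7 (0.09), Irf8 (0.33), Irf9 (0.22) and Stat2 (-0.02) did not pass.

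GTPases again split. Gbp2 measured 2212 and 2228 in washout cultures, against 1146 and 1271 in Ro cultures, a rise of 0.88 ± 0.13 (limma, adjusted p = 0.0053). Igtp measured 4838 and 4360 in washout cultures, against 9593 and 9891 in Ro cultures, and fell by 1.08 ± 0.15 on the log2 scale (limma, adjusted p = 0.0046). Irgm1 measured 1676 and 1724 in washout cultures, against 2232 and 2306 in Ro cultures, and fell by 0.42 ± 0.09. None of these 3 overlapped between the groups, while Gbp3 (-0.08 ± 0.08) and Iigp1 (-0.10 ± 0.51) did not pass.

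In MHC class I, B2m measured 7109 and 7845 in washout cultures, against 10705 and 11294 in Ro cultures, and fell by 0.56 ± 0.08 on the log2 scale (limma, adjusted p = 0.0055). Its probe lay in a bright region on washout 1, and the second B2m probe, also in such a region, gave -0.52. Tap1 measured 73.8 and 87.2 in washout cultures, against 111.5 and 109.5 in Ro cultures, and fell by 0.46 ± 0.12 (limma, adjusted p = 0.029). Both genes had washout arrays below every Ro array. Tapbp and the 3 heavy chains changed by -0.08 to 0.15 and did not pass.

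**Figure D3:**
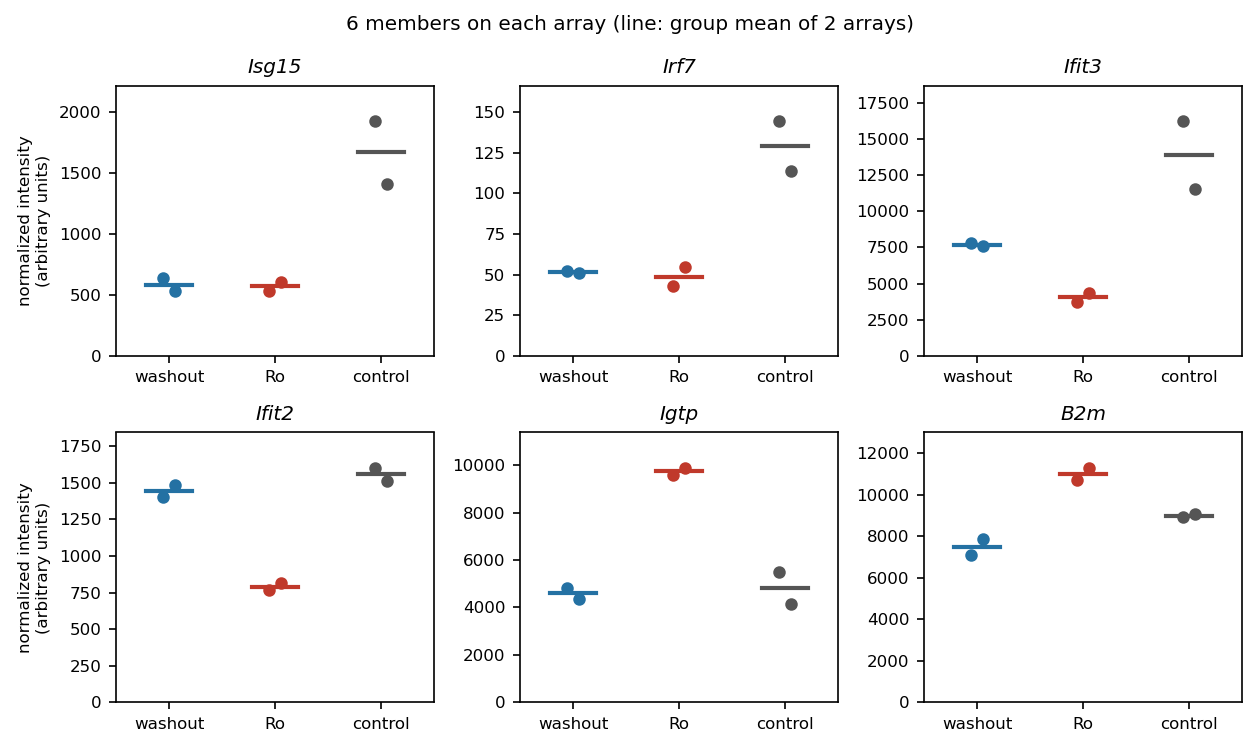
Normalized intensity (arbitrary units, from 0) of Isg15, Irf7, Ifit3, Ifit2, Igtp and B2m on each array, with washout, Ro and control from left to right and a line at each group mean of 2 arrays. Isg15 and Irf7 have washout means of 584 and 51.7, beside Ro means of 569 and 48.7 and control means of 1667 and 129.0. Ifit2 has a washout mean of 1445, a Ro mean of 791 and a control mean of 1559.

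Against control cultures, washout cultures held less of a subset of the antiviral genes 48 h after the inhibitor was removed. Of the 36 genes 11 were lower, against 5.96% of all features, and none was higher at an adjusted p under 0.05 or at an unadjusted p under 0.05 (limma), against 4.13% of all features higher and 10.1% called in either direction. Of all features called, 40.9% were higher, and 30.8% after median centring. The median change was -0.40, against -0.01 over all features, and both washout arrays lay below both control arrays for 27 of the 36 genes, a pattern seen in 29.4% of all features. The number called lower was unstable. It was 1 without control 1, 4 without control 2, 3 without washout 1, 4 without washout 2, and 5 without either Ro array. With no filter on dim probes none of the 11 was called, and with the washout and control arrays alone 5 genes were. In no such fit was a gene called higher.

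Isg15 measured 637.2 and 531.6 in washout cultures, against 1923 and 1411 in control cultures, a change of -1.50 ± 0.19 (limma, adjusted p = 0.016). Oasl2 measured 723.0 and 732.0 in washout cultures, against 1737 and 1354 in control cultures, a change of -1.08 ± 0.16 (limma, adjusted p = 0.023). Oas1a measured 48.2 and 37.3 in washout cultures, against 112.1 and 105.6 in control cultures, a change of -1.36 ± 0.17 (limma, adjusted p = 0.017). All 3 had washout arrays below every control array. Oasl1 measured 21.4 and 23.3 in washout cultures, where it was not well above background, against 104.4 and 49.0 in control cultures. It was at least 2.72-fold lower (limma, adjusted p = 0.048), a bound set by the lowest signal called above background on each washout array. Xaf1 (-0.81 ± 0.11), Ifi35 (-0.71 ± 0.11) and Bst2 (-0.63 ± 0.11) were also lower. Changes without a call included Ifi44 (-1.50 ± 0.39), Ifit1 (-1.31 ± 0.29), Usp18 (-1.06 ± 0.27), Rsad2 (-1.02 ± 0.48), Ifit3 (-0.83 ± 0.18) and Trim25 (-0.28 ± 0.12). Those of Ifit2 (-0.11), Ifitm3 (-0.13), Parp14 (-0.12), Eif2ak2 (-0.07) and Isg20 (0.01) were small, although the second kept Parp14 probe gave -0.87. Ifit1 and Ifit3 had an adjusted p of 0.055 each (limma).

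Ddx58 measured 491.8 and 621.5 in washout cultures, against 961.0 and 920.9 in control cultures, a change of -0.77 ± 0.13 (limma, adjusted p = 0.032). Irf7 measured 52.5 and 50.9 in washout cultures, against 144.4 and 113.6 in control cultures, a change of -1.31 ± 0.17 (2.48-fold lower, limma, adjusted p = 0.017). Stat2 measured 1297 and 1398 in washout cultures, against 2105 and 1975 in control cultures, a change of -0.60 ± 0.08 (limma, adjusted p = 0.021). On the probes used, these 3 genes, a sensor and 2 factors, had every washout array below every control array. The other kept Ddx58 probes gave -0.94 and -0.40, and on the latter washout 2 (108.3) lay above control 2 (97.1). Ifih1 (-0.35), Irf8 (-0.37), Irf9 (-0.22) and Irf1 (0.17) did not pass. Gbp3 measured 2817 and 2770 in washout cultures, against 3975 and 3556 in control cultures, a change of -0.43 ± 0.08 (limma, adjusted p = 0.041). It was the GTPase with a call, while Gbp2 (0.19), Igtp (-0.06), Irgm1 (-0.37) and Iigp1 (-1.05) had none. No MHC class I gene passed (limma, 3 lower at an unadjusted p under 0.05), with changes of -0.47 in Tap1 to 0.03 in Tapbp.

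The replicate arrays of the control group differed in these genes more than in others. Of the 36 genes 32 were higher in control 1 than in control 2, whereas 42.8% of all features were. The median log2 difference was 0.21 for the genes and -0.03 for all features. In Ro cultures 3 of 36 genes were higher in replicate 1 (44.2% of all features), and in washout cultures 24 of 36 (58.6%). Between control arrays 5 genes differed by more than 1.5-fold, against 4.70% of all features. These were Iigp1 (863.5 and 306.8), Oasl1, Ifit1, Usp18 and Rsad2.

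**Figure D4:**
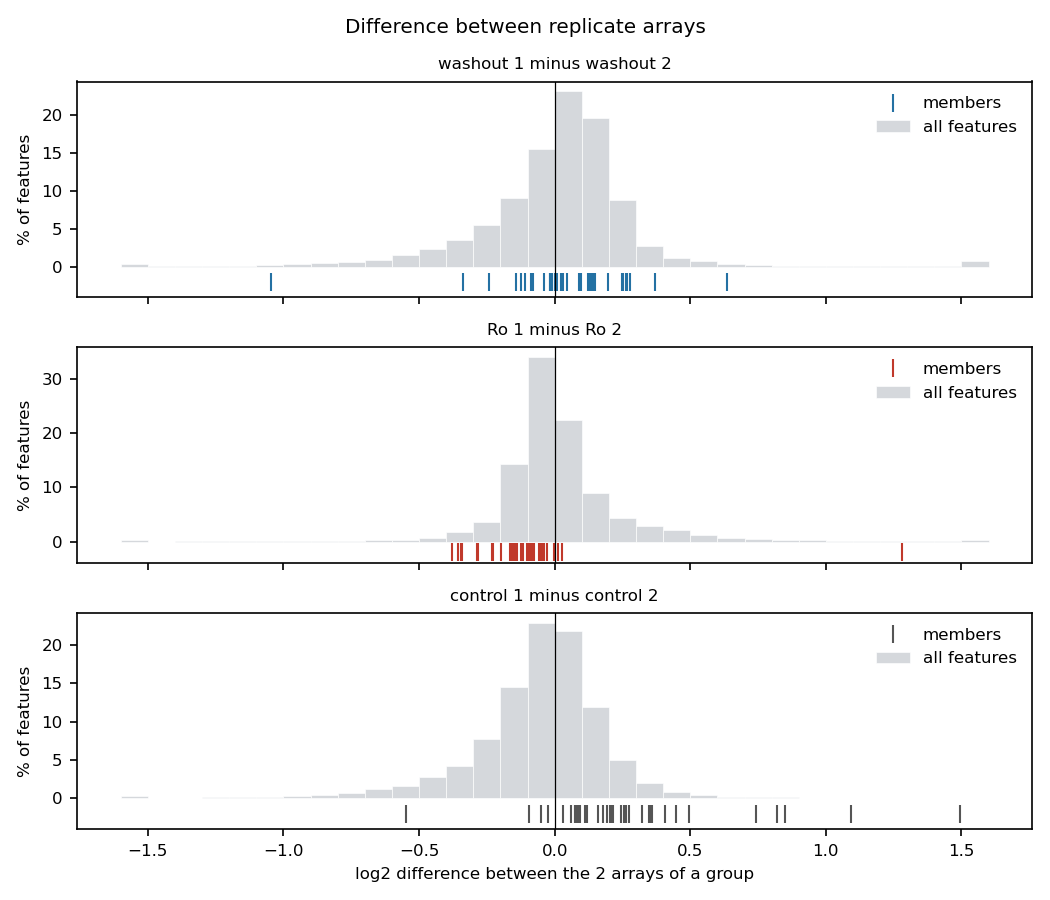
Log2 difference between the 2 arrays of each group for all features (bars, percent of features per 0.1, with values beyond the axis placed in the last bar) and for the 36 genes (ticks). The ticks of control 1 minus control 2 lie to the right of 0 for 32 of 36 genes, and those of Ro 1 minus Ro 2 to the left for most genes.

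Beyond these genes, a list of 50 other interferon-stimulated genes was looked at, of which 38 were measured. In Ro cultures 24 (63.2%) were lower and 1 (2.63%) higher than in control cultures, against 22.7% and 19.4% of all features, with a median change of -0.52. The largest falls were those of Tgtp1, a GTPase, at -1.60 ± 0.43, Rtp4, a receptor chaperone, at -1.33 ± 0.18, and Sp110, a nuclear body protein, at -1.31 ± 0.13. Gbp6, singled out after its values were seen, was the gene that rose (0.70 ± 0.10). In washout against Ro cultures 10 (26.3%) were higher and 5 (13.2%) lower, near the 21.4% and 20.1% of all features. Uba7, the enzyme that activates ISG15, was among the higher at 1.17 ± 0.13. The 5 lower include Zbp1, at least 1.57-fold lower in washout cultures, where it was not well above background. They also include Sp100, whose probe was well above background on the 2 Ro arrays alone (56.4 and 30.0), kept for that group and in bright regions on 2 arrays, so its fall is not read as a result. In washout against control cultures 8 (21.1%, against 5.96% of all features) were lower and none higher, also at an unadjusted p under 0.05 (limma). The 8 included Dhx58, the RNA sensor LGP2, at -1.14 ± 0.11, Ifi27l2a at -1.03 ± 0.15 and Slfn2 at -0.92 ± 0.15. Slfn2 measured 36.7 and 29.8 in washout cultures and was well above background on 1 of those 2 arrays, so the size of its fall is uncertain.

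Upstream of the genes, few interferon transcripts were measured. Of 19 interferon ligands 7 had no matched probe, 9 had a probe that was not kept, and 3 were tested, none of which passed in any comparison (limma). At an unadjusted p under 0.05 the count was 1, for Ifnz in washout against Ro cultures (-0.54 ± 0.18). The Ifnb1 probe, for interferon-beta, was not well above background on any array. Among 15 measured receptor and JAK-STAT genes 6 (40.0%) were lower and 2 (13.3%) higher in Ro than in control cultures, against 22.7% and 19.4% of all features. Ifngr1, the ligand-binding chain of the interferon-gamma receptor, changed by -0.50 ± 0.08, and Socs1, a feedback inhibitor of JAK kinases, by 0.53 ± 0.08. Against Ro cultures 4 (26.7%) were higher and 1 (6.67%) lower in washout cultures, where all features had 21.4% and 20.1%. Socs3, another feedback inhibitor, rose by 1.66 ± 0.08 and Ifngr1 by 0.60 ± 0.08, and Ifngr2, the second receptor chain, fell by 0.70 ± 0.09 on the log2 scale. Socs3 was also the gene of this list with a call against control cultures (1.67 ± 0.08, limma, adjusted p = 0.0042).

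Of 18 measured genes that sense nucleic acids and induce interferon, 3 (16.7%) were lower and 2 (11.1%) higher in Ro than in control cultures, against 22.7% and 19.4% of all features, with a median of -0.14. Irf5 (-1.31 ± 0.32) and Tlr3, the endosomal receptor for double-stranded RNA (-0.89 ± 0.11), were lower, and the signalling ligase Traf6 was higher (0.60 ± 0.08). In washout against Ro cultures 3 (16.7%) were higher and 4 (22.2%) lower, near the 21.4% and 20.1% of all features. Tlr3 changed by 0.80 ± 0.11 and Irf2 by 0.55 ± 0.13. Against control cultures Traf6 (0.50 ± 0.08) and Ikbke (0.39 ± 0.07) were higher in washout cultures and none was lower (limma, 3 lower at an unadjusted p under 0.05). That was 11.1% higher, where all features had 4.13% higher and 5.96% lower.

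Among other genes of MHC class I presentation, 5 of 18 measured (27.8%) were lower and 2 (11.1%) higher in Ro than in control cultures, near the 22.7% and 19.4% of all features. The immunoproteasome subunit Psmb9 changed by -0.86 ± 0.11 and the peptide editor Tapbpl by -0.73 ± 0.09, while Cd1d1, which presents lipids, rose by 1.46 ± 0.07. In washout against Ro cultures 3 (16.7%) were higher and 5 (27.8%) lower, near the 21.4% and 20.1% of all features. Tapbpl changed by 0.54 ± 0.09, Cd1d1 by -1.29 ± 0.07 and the proteasome activator Psme2 by -0.49 ± 0.11. Psmb9 (-0.65 ± 0.11) and the trimming peptidase Erap1 (-0.40 ± 0.07) were lower in washout than in control cultures. That was 11.1% lower and none higher, where all features had 5.96% lower and 4.13% higher. Of 7 measured genes of MHC class II presentation, which microglia use, 2 (28.6%) were lower and 1 (14.3%) higher in Ro than in control cultures. These shares were near the 22.7% and 19.4% of all features. The genes were Rfxap (-0.51 ± 0.09), Rfx5 (-0.46 ± 0.13) and H2-Ab1 (0.67 ± 0.13). For washout against Ro cultures 2 (28.6%) were higher and 1 (14.3%) lower, near the 21.4% and 20.1% of all features. H2-Ab1 changed by -0.95 ± 0.13, Rfxap by 0.54 ± 0.09 and H2-DMa by 0.40 ± 0.08. None of the 7 passed in washout against control cultures (limma, 1 higher and 2 lower at an unadjusted p under 0.05).

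**Figure D5:**
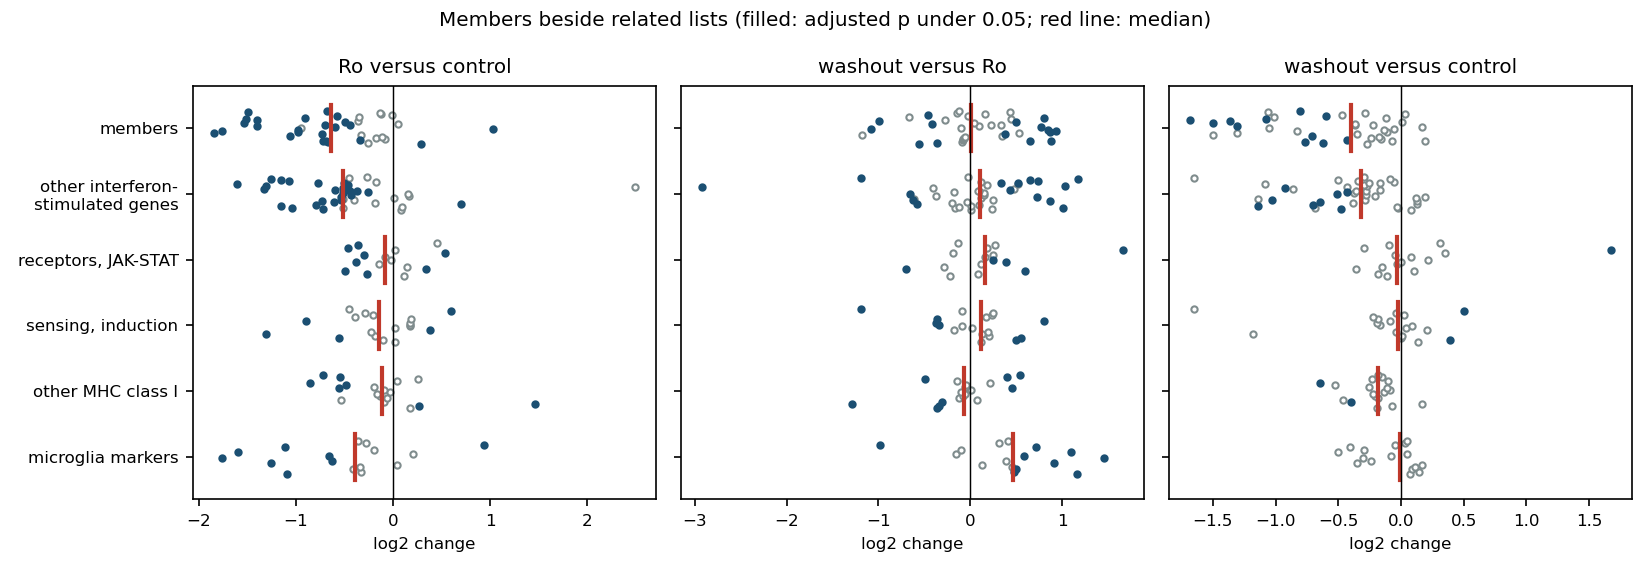
Log2 change of each measured gene (points) in 6 lists for the 3 comparisons, filled where the adjusted p was under 0.05, with a red line at the list median. In Ro against control the medians were -0.64 for the 36 genes, -0.52 for other interferon-stimulated genes and -0.39 for microglia markers.

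Markers of microglia, the resident immune cells of the brain, which also use these genes, were lower in the same comparison. By the labels under 1% of the cells carried Iba1, a microglial protein. Of 19 markers 16 were measured, and 7 (43.8%) were lower and 1 (6.25%) higher in Ro than in control cultures, against 22.7% and 19.4% of all features. Cx3cr1 changed by -1.76 ± 0.22, Itgam by -1.60 ± 0.17 and Csf1r by -1.26 ± 0.13. Itgam measured 18.8 and 14.8 in Ro cultures and was well above background on 1 of those 2 arrays, so the size of its fall is uncertain. Washout cultures set against Ro cultures had 8 markers (50.0%) higher and 1 (6.25%) lower, against 21.4% and 20.1% of all features. Cx3cr1 changed by 1.45 ± 0.22 and Aif1 by 1.16 ± 0.14. No marker passed in washout against control cultures (limma, 3 lower at an unadjusted p under 0.05). The summed normalized intensity of the 16 markers was 25738 to 28177 in washout, 22459 to 26942 in Ro and 26496 to 27240 in control cultures. P2ry12 and Spi1 were not well above background on any array. The part of microglia in the interferon result was not tested. Markers of ependymal cells (5 of 5 measured), oligodendrocyte precursors (4 of 4), neurons (4 of 5), pericytes and smooth muscle (5 of 7, with 1 higher) and meningeal fibroblasts (6 of 9, with 2 higher) were also lower in Ro than in control cultures, against 22.7% of all features lower and 19.4% higher. Among astrocyte markers 5 of 9 were lower and 2 higher, and both measured T cell and natural killer cell markers did not pass. Of 3 endothelial markers 1 was lower and 1 higher, namely the receptor gene Kdr, with 1802 and 2044 in Ro cultures against 223.1 and 220.3 in control cultures (3.11 ± 0.10).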

How the data were processed

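RNA from the 6 cultures was labelled with Cy3 and hybridised to one-colour Agilent arrays. The deposited array files hold a background-corrected intensity per spot, made by the authors with Agilent Feature Extraction, version 10.1 per the submitters' processing notes and 10.5.1.1 per the file headers. A deposited table over the 6 samples gives a ratio per probe, whose centring is not given in the sources used here, and it served as an alternative only. Intensities were divided by each array's 75th percentile and tested as log2 values. Marked spots removed 106 of 41174 non-control probes. Of the others, 26469 exceeded background on both arrays of some group and were kept. Accessions were matched to symbols with a RefSeq table (GRCm38.p6), which named 25089 probes (60.9%); Mx1 and Mx2 were not matched. The kept probe with the highest mean stood for a gene, giving 20088 features. All 6 arrays entered a limma fit (version 3.58.1, R 4.3.3) that estimated a mean for each group. Tests were moderated and two-sided (3 residual and 2.09 prior degrees of freedom), with Benjamini-Hochberg adjustment over all features. With 2 arrays against 2, the smallest p of an exact permutation test is 0.333. The procedure was tested on simulated data. Figures were drawn with matplotlib 3.10.9.

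The genes, lists and tests were chosen with earlier results of these data known. By the rule for naming, every measured member was named, with array values for up to 4 per comparison and role that passed without overlap. From each other list up to 3 genes were named per comparison, and Ifnb1 and Sp5 were fixed; 1 other fixed gene is not reported here. Alternatives changed the scaling, background correction, dim-probe filter, the arrays fitted, variance model, pairing and choice of probe, used the authors' values, and left out each array in turn.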

Additional observations from a re-analysis of the deposited data

How the results depend on the processing

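Each result was recomputed with other scalings, background corrections, filters, variance models and probe choices, with the authors' ratios and without each array in turn. The exchanged pairing and the fit without probes in bright regions were chosen after seeing the data. In Ro against control 22 genes were called lower, and 13 to 21 with 1 array left out, while 2 were called higher, and 1 to 2 with 1 array left out. The number higher was 1 with median centring, quantile normalization, the authors' ratios and no filter on dim probes, and 0 without probes in bright regions, which leaves out the Igtp probe and both B2m probes. In washout against Ro 9 genes were higher and 6 lower, with 6 to 12 and 3 to 6 in the fits that left out 1 array, and 3 were lower with no filter. In washout against control 11 genes were lower and 0 higher, with 1 to 5 lower and 0 higher in the fits that left out 1 array. The number lower was 0 with no filter, under which more features were tested, 18 with an intensity trend in the variance and 5 with the arrays of the 2 groups alone. Deviations of same-numbered arrays correlated at -0.119 for Ro and control, -0.111 for washout and Ro and 0.0784 for washout and control. The main fit assumed no pairing. With 1 difference per group, these correlations cannot decide whether same-numbered samples were paired. With a replicate block 1 gene was higher and 20 lower in Ro against control, 9 higher and 5 lower in washout against Ro, and 4 lower in washout against control. With the Ro numbers exchanged in the block, chosen because the correlation was below 0, these counts were 1, 22, 10, 4 and 8.

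Every change of a gene that took the opposite sign under an alternative was without a call both ways, and the cause was not tested. These log2 changes follow. In Ro against control, Tap1 was 0.033 with median centring, 0.015 with quantile normalization and 0.034 with the authors' ratios. In washout against Ro, the median over the genes was -0.085 with median centring, -0.018 with quantile normalization, -0.0009 with normexp and -0.099 with the authors' ratios. Isg15 was -0.054 with median centring and -0.068 with the authors' ratios. Irf7 was -0.010 with the authors' ratios. Trim25 was 0.27 with averaged probes. Ddx58 was 0.025 with averaged probes. In washout against control, Isg20 was -0.041 with median centring, -0.054 with the authors' ratios and -0.053 with averaged probes. Trim25 was 0.095 with averaged probes. Tapbp was -0.019 with median centring, -0.040 with normexp, -0.032 with the authors' ratios and -0.14 with averaged probes. With 1 array left out, Ro against control gave H2-D1 from -0.18 to 0.024, H2-T23 from -0.25 to 0.017 and Irgm1 from -0.040 to 0.14. It also gave Rsad2 from -0.99 to 0.29 and Tap1 from -0.10 to 0.087. With 1 array left out, washout against Ro gave Ddx58 from -0.26 to 0.077, H2-K1 from -0.15 to 0.012, H2-T23 from -0.13 to 0.015 and Iigp1 from -0.42 to 0.21. It also gave Irf7 from -0.077 to 0.27, Isg15 from -0.094 to 0.17, Stat2 from -0.079 to 0.029 and the median from -0.069 to 0.14. With 1 array left out, washout against control gave Eif2ak2 from -0.17 to 0.031, Ifitm3 from -0.27 to 0.0009 and Igtp from -0.26 to 0.14. It also gave Isg20 from -0.12 to 0.14, Parp14 from -0.25 to 0.013 and Tapbp from -0.027 to 0.086.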
